A study of Mus musculus with 2 samples.

Results

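The angiopoietin-Tie system was followed through 5 genes: the ligands Angpt1 and Angpt2, the receptors Tek (also called Tie2) and Tie1, and the receptor-type phosphatase Ptprb (also called VE-PTP). These genes were taken by symbol from the 32285 genes listed in both count matrices, and all 5 were found in both. The chosen cells had 1000 to 5000 detected genes and under 20% mitochondrial transcripts, and the genes were read in 5 vessel classes of lung endothelial cells (ECs), including lymphatic cells.

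Wild-type C57BL/6 mice received either saline (PBS; control) or 400000 B16-F10 cells in 100 µl PBS through the tail vein, and lungs were collected 6 h later. The B16-F10 line comes from mouse skin melanoma and seeds the lung. Pecam1-positive, Ptprc-negative cells were sorted and profiled with a droplet-based 3' method that counts unique molecular identifiers (UMIs), each standing for 1 captured RNA molecule, and tracker-labelled melanoma cells of the injected lungs were sorted with them. Each treatment was 1 pool of lung cells, from 2 mice per the labels and from 3 per the study's methods for this experiment, so each group is 1 library, there was no replicate error, no test was possible, and every difference below is a difference between 2 libraries.

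In background terms, ANGPT1 made by perivascular and some endothelial cells activates the TEK receptor on ECs, which signals through PI3K and AKT and keeps junctions closed and the transcription factor FOXO1 out of the nucleus. ANGPT2 is an endothelial ligand kept in Weibel-Palade bodies, the storage granules of ECs, and it acts as a weak or opposing ligand depending on context. TIE1 binds no angiopoietin strongly on its own but pairs with TEK and modulates its signal, and PTPRB removes phosphate from TEK. In lymphatic ECs, where PTPRB is scarce, ANGPT2 can activate TEK.

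After filtering and removal of called doublets, 7830 control cells and 7767 B16-F10 cells remained, with medians of 7510 and 8557 UMIs per cell. Clusters were named from marker genes, without the 5 genes and the lists below among the genes used for clustering. General capillary (gCap-like) cells numbered 5082 and 4659, aerocyte capillary (aCap-like) cells 1446 and 972, vein-like cells 276 and 264, artery-like cells 68 and 41. Lymphatic (LEC-like) cells numbered 58 and 51. The lymphatic label was given by 8 markers, so their levels describe the class and are no separate check of its name. Their summed level was 30075 counts per 1000000 UMIs (CPM) in LEC-like control cells and 75.3 CPM in gCap-like control cells. Of the LEC-like sum, Ccl21a alone gave 18132 CPM, and the lowest of the 8, Sema3d, had 694 CPM. The artery-like cells were a small core, because gCap-like cluster 8 carried 5 of the 8 artery markers, and 18 cell barcodes occurred in both libraries. The gCap-like class was made of different clusters in the 2 libraries: cluster 0 held 1765 control and 636 B16-F10 cells, and cluster 6, led by Lalba and Tmem252, held 68 and 948.

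The genes lie in separate places of the mouse genome (GRCm38, which is mm10). Angpt1 spans 42424723 to 42676977 on chromosome 15 and overlaps the antisense gene Gm17473. Angpt2 spans 18690263 to 18741562 on the minus strand of chromosome 8 and overlaps Mcph1 on the other strand. Tek spans 94739289 to 94874976 on the plus strand of chromosome 4, and Tie1 spans 118471191 to 118490061 on its minus strand. Ptprb spans 116275523 to 116389535 on the plus strand of chromosome 10, where 2 short annotated transcripts overlap it on the same strand.

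The stretch of 250 bases before the annotated start of Tek is shown because Tek was the receptor whose level differed most between the 2 capillary classes. It lies at chr4:94739039-94739288 on the plus strand of GRCm38.p6 (RefSeq), and the capitals mark the 2 matches to GGAA or its reverse TTCC, the core bound by ETS factors such as ERG.
Tek upstream: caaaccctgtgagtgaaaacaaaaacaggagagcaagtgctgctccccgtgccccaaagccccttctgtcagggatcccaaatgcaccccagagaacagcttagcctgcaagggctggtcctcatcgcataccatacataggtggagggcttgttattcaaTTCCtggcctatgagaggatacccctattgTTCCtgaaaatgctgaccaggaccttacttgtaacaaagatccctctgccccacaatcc
Such a match occurred in 93.4% of 32851 upstream windows of this length, searched on both strands, so the 2 matches are no special feature of Tek. No match was found in this window to AGATAA, the GATA motif (9.99% of windows), to GTAAACA, the forkhead motif of FOXO factors (3.17%), or to TGACTCA, the AP-1 motif (4.46%).

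Angpt2, the ligand kept in storage granules, was lower in the B16-F10 library in gCap-like ECs. Its level was 37.5 CPM in control (95% interval 35.6 to 39.5, 1434 UMIs) and 17.8 CPM in B16-F10 (16.5 to 19.1, 727 UMIs), a log2 ratio of -1.08 (-1.21 to -0.95). The control level was thus 2.11-fold the B16-F10 level, and the 2 intervals did not overlap. Intervals here and below are exact and cover counting error only. Of the 13373 genes with at least 50 UMIs in gCap-like ECs, 17.2% differed by at least 1.5-fold in either direction and 9.56% were lower by that much. Angpt2 was the 1 of the 5 genes past 1.5-fold, and its ratio stood at the 2.07th percentile of all genes. The gCap-like ratios of the others were less extreme among all genes. They stood at percentile 11.3 for Angpt1, 12.4 for Tek, 14.6 for Ptprb and 24.9 for Tie1.

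**Figure D1:**
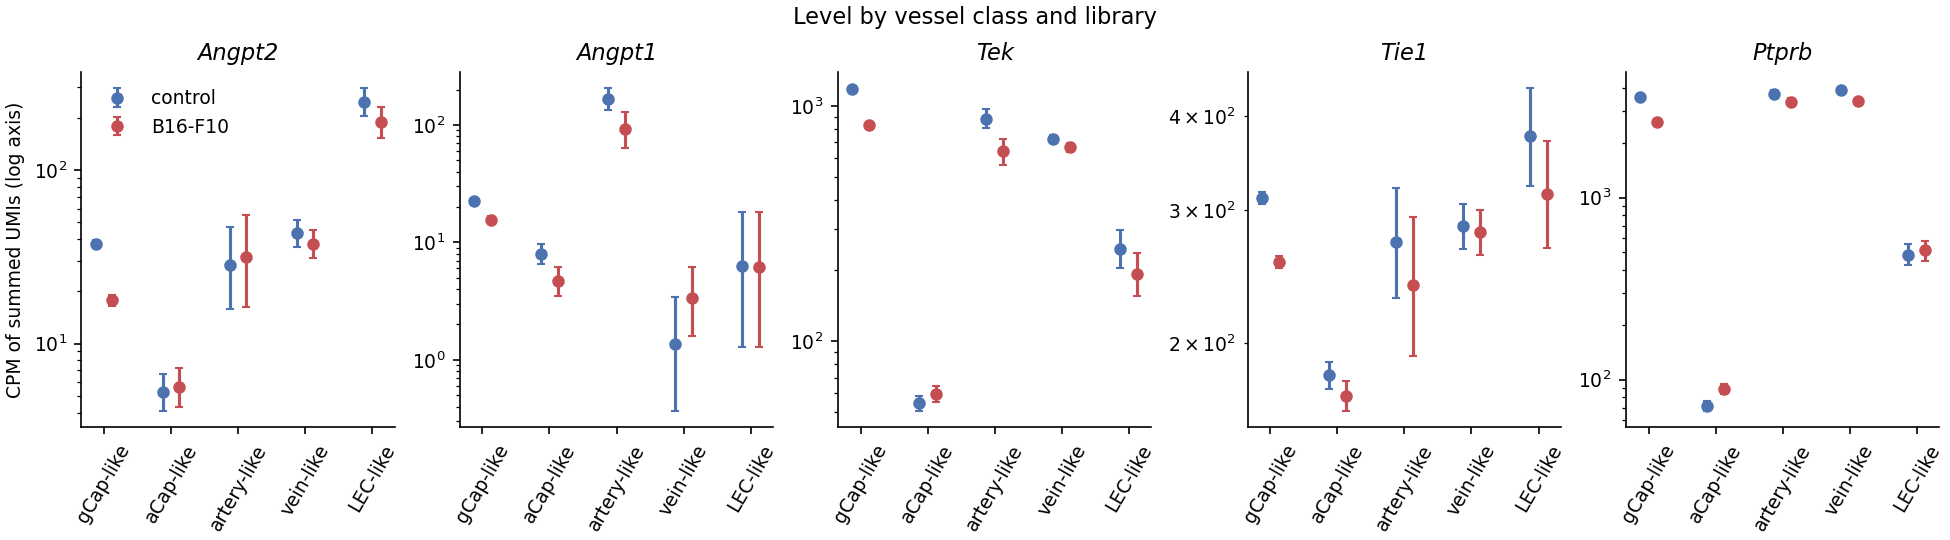
Level of each gene in 5 vessel classes, as CPM of the summed UMIs on a log axis that differs between panels, in the control (blue) and B16-F10 (red) library. Points are 1 library each and bars are exact 95% Poisson intervals for counting error. Angpt2 is highest in LEC-like cells (247 and 189 CPM), and Tek and Ptprb are lowest in aCap-like cells.

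Few gCap-like cells yielded an Angpt2 UMI at all. With each cell thinned to 2000 UMIs, the control library had 356 such cells of 5016 (7.10%, 6.40 to 7.84). The B16-F10 library had 177 of 4630 (3.82%, 3.29 to 4.42). At full depth, with medians of 7340.5 and 8509 UMIs, the shares were 20.4% and 11.8%. Among lymphoid-like cells, which should lack Angpt2, 0 of 16 cells in control and 0 of 60 in B16-F10 held one at 2000 UMIs, which allows a share of up to 18.75% and 5%, and 6.25% of cells did in both libraries without thinning, at medians of 8518.5 and 7312 UMIs. Both thinned gCap-like shares were within what this small reference allows. Free RNA, estimated from near-empty droplets and the secretory epithelial genes Sftpc and Scgb1a1, was put at 0.337 of the 37.5 CPM in control and 0.286 of the 17.8 CPM in B16-F10.

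Every gCap-like cluster had less Angpt2 in the B16-F10 library. Cluster 0 had 38.0 CPM in control and 24.8 in B16-F10, cluster 1 had 47.1 and 24.9, and cluster 4 had 41.9 and 21.02. Cluster 7 had 51.0 and 28.8 CPM, cluster 8 had 29.7 and 17.2, and cluster 3 had 17.2 and 11.1. Cluster 6, mostly of the B16-F10 library, had the lowest level there, at 22.4 CPM on 12 control UMIs and 6.61 CPM on 59 B16-F10 UMIs. With cluster 6 left out, the log2 ratio of the class was -0.86, so the lower level did not rest on that cluster.

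**Figure D2:**
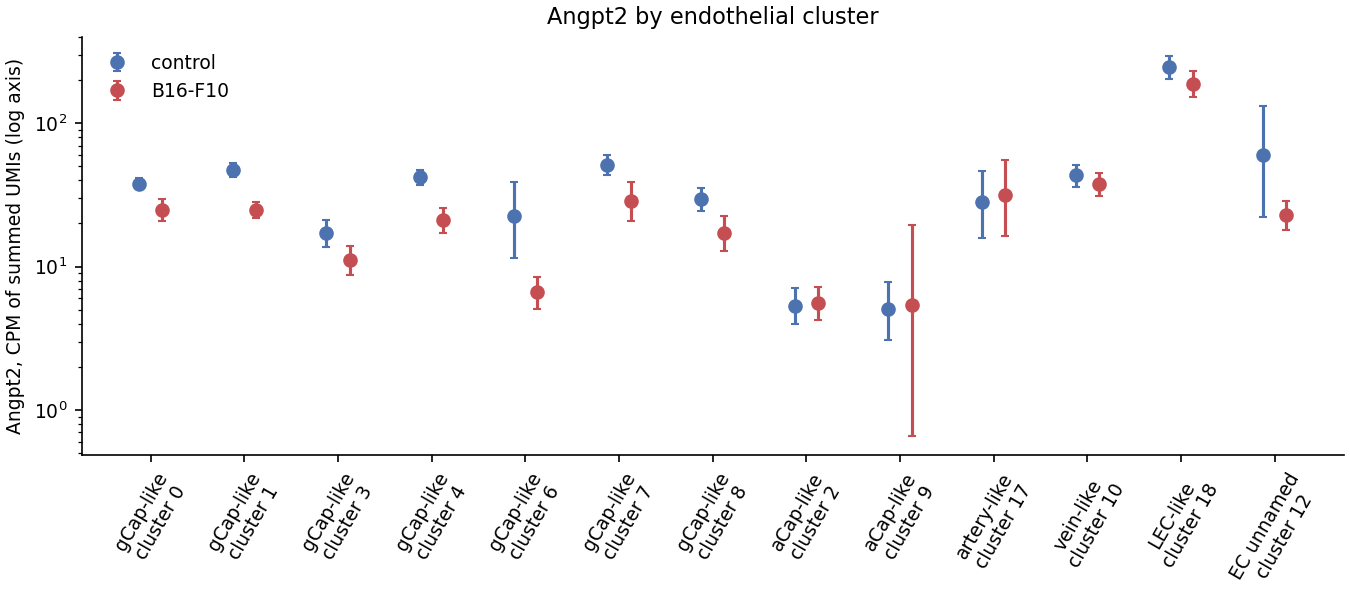
Angpt2 in each endothelial cluster, as CPM of summed UMIs on a log axis, for the control (blue) and B16-F10 (red) library with exact 95% Poisson intervals. The red point is below the blue point in all 7 gCap-like clusters, and cluster 6 has the lowest B16-F10 level among them, 6.61 CPM.

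Angpt2 was also read along a reactive capillary score, the number of UMIs from 44 reactive capillary (rCap) markers of the study in each cell thinned to 2000 UMIs. These markers were chosen by the study partly on these libraries. The median score was 20 in 5016 control gCap-like cells and 36 in 4630 B16-F10 cells. Cells of each library were split by score into 4 equal groups. In the B16-F10 library, Angpt2 was 25.1, 22.4, 15.8 and 7.81 CPM from the lowest to the highest group. In the control library the groups had 36.5, 40.7, 37.6 and 35.5 CPM. The highest group against the lowest gave a log2 ratio of -1.69 (-2.06 to -1.32) in B16-F10 and -0.04 (-0.26 to 0.18) in control.

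Angpt2 was also lower in the B16-F10 library within shared ranges of the score. With the score limits set on both libraries together, an alternative chosen after seeing the data, the log2 ratio of B16-F10 over control was -0.52 in the lowest range (scores up to 18), -0.65 and -0.71 in the next ranges and -0.94 in the highest (36 and over). The highest range held 185 control and 2333 B16-F10 cells, with 22.7 and 11.8 CPM of Angpt2. Its scores ran from 36 to 68 in control and from 36 to 142 in B16-F10, so they were not alike there. In that reading the control library also had less Angpt2 in the highest range than in the lowest, by a log2 ratio of -0.68 (-1.27 to -0.16).

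**Figure D3:**
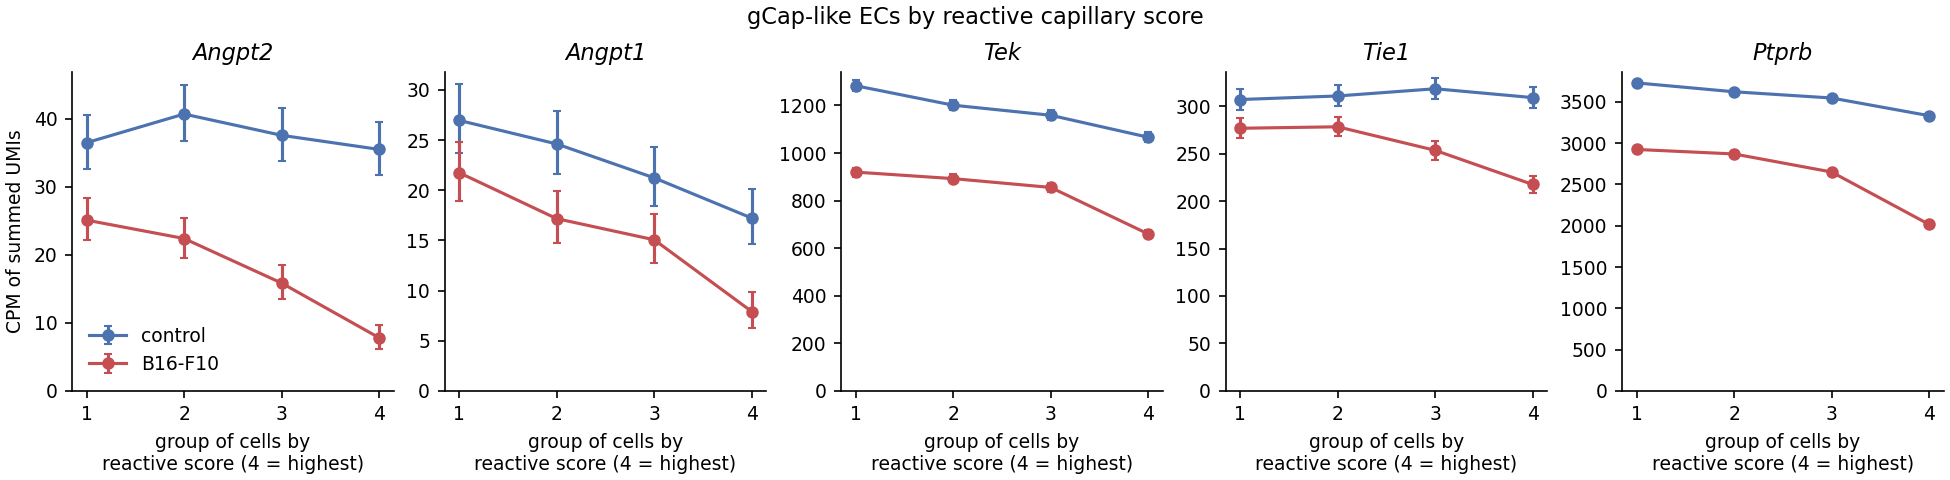
Level of each gene, as CPM of summed UMIs, in gCap-like cells split into 4 equal groups of rising reactive capillary score within the control (blue) and B16-F10 (red) library. Bars are exact 95% Poisson intervals. Angpt2 goes from 25.1 to 7.81 CPM over the B16-F10 groups and stays between 35.5 and 40.7 CPM in control.

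Outside gCap-like ECs, no vessel class showed a difference in Angpt2 beyond counting error. In LEC-like cells the level was 247 CPM in control (119 UMIs) and 189 CPM in B16-F10 (91 UMIs), a log2 ratio of -0.39 (-0.80 to 0.02). In vein-like cells it was 43.3 and 37.7 CPM, a log2 ratio of -0.20 (-0.58 to 0.18). Artery-like cells had 28.4 and 31.5 CPM on only 15 and 12 UMIs, with an interval of the log2 ratio from -1.08 to 1.35. aCap-like cells had 5.27 and 5.60 CPM, a log2 ratio of 0.09 (-0.43 to 0.61). Whether the gCap-like ratio differed from those of the other classes was not tested.

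Lymphatic cells had the highest Angpt2 level in both libraries. Their level was 5.72-fold that of vein-like cells in control and 5.02-fold in B16-F10, and 6.59-fold and 10.7-fold that of gCap-like cells. These levels rested on few cells. The top 10% of LEC-like cells held 43.7% of the Angpt2 UMIs in control and 64.8% in B16-F10. A single cell held up to 14 UMIs in control and 20 in B16-F10, a spread that the counting intervals do not cover. In control, the neighbours vein, gCap and artery did not differ beyond counting error, and aCap-like cells were 5.39-fold below artery-like cells. At 2000 UMIs per cell, 34.5% of control LEC-like cells (20 of 58, 22.5 to 48.1) and 27.5% of B16-F10 LEC-like cells (14 of 51, 15.9 to 41.7) held an Angpt2 UMI, against 0 in the lymphoid-like cells above.

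The neighbour on the other strand of Angpt2 moved too. Mcph1, a gene of chromosome condensation named here after its values were seen, was 20.6 CPM in control and 12.99 CPM in B16-F10 gCap-like ECs, a log2 ratio of -0.66 (-0.82 to -0.50). The sources used here do not state whether counting used the strand, so whether reads of the 2 genes were told apart is not known here. The part of Mcph1 in the Angpt2 difference was not tested. The 2 genes had different patterns over classes in control, since Mcph1 was 24.6 CPM in aCap-like control cells, where Angpt2 was 5.27 CPM, and 33.3 CPM in LEC-like control cells, where Angpt2 was 247 CPM. Between libraries, the aCap-like log2 ratio was -0.47 (-0.74 to -0.21) for Mcph1 and 0.09 for Angpt2. The vein-like values were -0.19 (-0.79 to 0.40) and -0.20. In artery-like and LEC-like cells the Mcph1 interval included 0.

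Angpt1, the activating ligand of TEK, was highest in artery-like cells among the 5 vessel classes. It had 167 CPM there in control (134 to 205, 88 UMIs) and 92.0 CPM in B16-F10 (64.0 to 128, 35 UMIs), a log2 ratio of -0.86 (-1.47 to -0.28) that ran from -1.94 to -0.66 over the alternatives. The value of -1.94 was with each library clustered alone. In that setting the artery-like class was 67 control cells and B16-F10 clusters of 299 and 30 cells, so the cells compared were not alike. The artery-like level was 7.41-fold the gCap-like level in control and 5.92-fold in B16-F10. gCap-like cells had 22.5 CPM in control (858 UMIs) and 15.5 CPM in B16-F10 (636 UMIs), a log2 ratio of -0.53 (-0.68 to -0.38). aCap-like cells had 8.02 and 4.68 CPM, a log2 ratio of -0.78 (-1.29 to -0.28) that ran from -1.07 to -0.33 over the alternatives. Within neither of its clusters did Angpt1 differ beyond counting error, with log2 ratios of -0.29 (-0.90 to 0.32) in cluster 2 and -0.06 (-1.74 to 1.24) in cluster 9, which had 14.2 and 13.6 CPM and held 613 control and 72 B16-F10 cells. At 2000 UMIs per cell, 3.87% of control and 3.02% of B16-F10 gCap-like cells held an Angpt1 UMI. Of the lymphoid-like cells, 3 of 16 in control and 0 of 60 in B16-F10 did, and the control ones held 88.7 CPM of Angpt1, so they give no background level for it. Free RNA was put at 0.327 of the 22.5 CPM in control gCap-like cells. In artery-like and aCap-like cells Angpt1 was the only tested one of the 5 genes past 1.5-fold, where 18.3% of 3634 and 14.6% of 11105 genes were. Angpt2, with 15 and 12 UMIs, was not among those tested in artery-like cells. In aCap-like cells it was under 1.5-fold within each cluster and with each library clustered alone. In vein-like and LEC-like cells none of the tested ones was, where 10.9% of 9226 and 16.8% of 3977 genes were.

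Vein-like and LEC-like cells had almost no Angpt1. Vein-like cells held 4 control and 10 B16-F10 UMIs, and LEC-like cells held 3 in each library. The highest Angpt1 level of any cluster with endothelial markers was in cluster 15, a mixed cluster kept out of the vessel classes. It also carried 7 mural, 6 smooth muscle and 6 fibroblast markers. It had 825 CPM in 54 control cells (741 to 915) and 346 CPM in 85 B16-F10 cells (306 to 390). Mixed cluster 14, with 6 mural, 4 smooth muscle and 3 fibroblast markers, had 47.2 CPM in control and 60.9 CPM in B16-F10. Perivascular cells are a known source of ANGPT1.

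Transcripts of other cells were present at low levels in gCap-like ECs. The summed level of 8 mural markers was 33.3 CPM in control and 55.1 CPM in B16-F10, and none of the 8 was at 0 in either library. With only cells free of UMIs of platelet, mural, myeloid or melanoma markers, 2881 control and 1536 B16-F10 cells, the gCap-like Angpt1 log2 ratio was -0.37, in the same direction. What part transcripts of other cells had in the gCap-like Angpt1 ratio was not tested.

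Along the reactive score, Angpt1 was lower in the highest score group than in the lowest in both libraries. The log2 ratio of highest over lowest group was -0.65 (-0.94 to -0.35) in control and -1.46 (-1.84 to -1.09) in B16-F10. With score limits set on both libraries together, the difference between libraries was no longer beyond counting error in any of the 4 ranges, with log2 ratios of -0.21, -0.20, 0.02 and 0.34. Angpt1 and Angpt2 gave different values in that reading, Angpt2 being lower in all 4 ranges with intervals below 0. Whether the 2 genes differed there was not tested.

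Tek, the angiopoietin receptor, was lower in B16-F10 gCap-like ECs, by less than 1.5-fold. It had 1178 CPM in control and 831 CPM in B16-F10, a log2 ratio of -0.50 (-0.52 to -0.48). Artery-like cells had 884 and 641 CPM, a log2 ratio of -0.46 (-0.69 to -0.24). It was -0.06 with each library clustered alone, where the class held 67 control cells and B16-F10 clusters of 299 and 30 cells. Vein-like cells had 725 and 668 CPM, a smaller log2 ratio of -0.12 (-0.21 to -0.03). LEC-like cells had 247 and 193 CPM, a log2 ratio of -0.36 (-0.76 to 0.05), which did not exceed counting error.

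**Figure D4:**
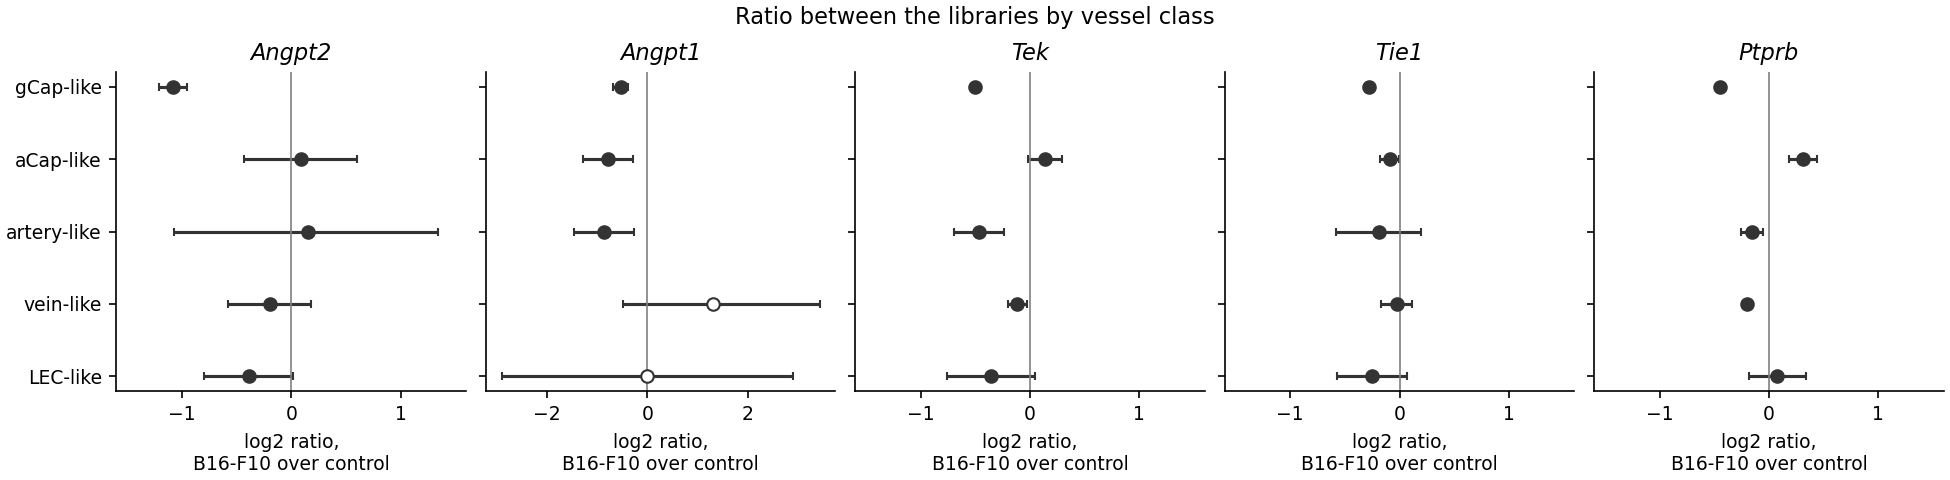
Log2 ratio of B16-F10 over control for each gene in 5 vessel classes, with the exact 95% interval for counting error and a grey line at 0. Open points rest on under 10 UMIs in 1 of the libraries, and the Angpt1 panel has a wider axis. In gCap-like cells all 5 ratios are below 0, from -1.08 for Angpt2 to -0.28 for Tie1, and Ptprb is above 0 in aCap-like cells.

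Tek separated the 2 capillary classes. The aCap-like level was 54.6 CPM in control and 59.9 CPM in B16-F10, a log2 ratio of 0.13 (-0.02 to 0.29). Within both clusters of the class Tek was higher in B16-F10 beyond counting error, with 46.7 and 58.1 CPM in cluster 2 (log2 ratio 0.31, 0.13 to 0.50) and 72.8 and 111 CPM in cluster 9 (0.61, 0.10 to 1.09). Cluster 9, with the higher level, held 613 control and 72 B16-F10 cells. The gCap-like level was 21.6-fold the aCap-like level in control and 13.9-fold in B16-F10. At 2000 UMIs per cell, Tek was found in 87.1% of control and 78.0% of B16-F10 gCap-like cells, and in 10.2% and 9.73% of aCap-like cells. Lymphoid-like cells gave 0 of 16 in control and 6.67% in B16-F10 (1.85 to 16.2). Summed without thinning, lymphoid-like cells held 7.40 CPM of Tek in control on 1 UMI and 48.8 CPM in B16-F10 on 24 UMIs. The B16-F10 value is near the aCap-like level, and whether the aCap-like difference exceeds background was not tested. Over the alternatives, the Tek log2 ratio of the aCap-like class ran from -0.19 to 0.30. The value of -0.19, with the sign turned, was with cells thinned to 2000 UMIs. Without thinning the gCap-like shares were 99.2% and 98.3%. Free RNA was put at 5.55 of the 54.6 CPM and 6.20 of the 59.9 CPM in aCap-like cells.

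In the unnamed endothelial cluster 12, led by Csf2 and Sox9 and held mostly by the B16-F10 library (11 control and 340 B16-F10 cells), Tek was 190 CPM in B16-F10. Angpt2 had 22.8 CPM there on 77 UMIs, Tie1 114 CPM and Ptprb 414 CPM. The 11 control cells had 532 CPM of Tek and 1446 CPM of Ptprb. In cluster 6 of the gCap-like class, Tek was 882 CPM in control and 618 CPM in B16-F10.

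Tie1, the partner receptor, varied least over the classes. It was highest in LEC-like cells, with 376 CPM in control and 316 CPM in B16-F10, though in B16-F10 the step to vein-like cells was within counting error. It was lowest in aCap-like cells, with 181 and 170 CPM. In gCap-like cells it had 312 and 256 CPM, a log2 ratio of -0.28 (-0.32 to -0.24). The gCap-like level was 1.72-fold the aCap-like level in control and 1.505-fold in B16-F10. The 2 capillary classes thus differed far less in Tie1 than in Tek.

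The Tie1 ratios of the remaining classes were small. Vein-like cells had 286 and 281 CPM, a log2 ratio of -0.03 (-0.17 to 0.11). Artery-like cells had 273 and 239 CPM, and their interval reached from -0.58 to 0.20. LEC-like cells had a log2 ratio of -0.25 (-0.57 to 0.07). In aCap-like cells the log2 ratio was -0.09 (-0.18 to -0.00). At 2000 UMIs per cell, 47.0% of control and 41.5% of B16-F10 gCap-like cells held a Tie1 UMI, against 0 of 16 and 3.33% of lymphoid-like cells.

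Ptprb, the phosphatase that acts on TEK, was lower in the B16-F10 library in gCap-like, vein-like and artery-like ECs. gCap-like cells had 3558 CPM in control and 2612 CPM in B16-F10, a log2 ratio of -0.45 (-0.46 to -0.43). Vein-like cells had 3917 and 3405 CPM, a log2 ratio of -0.20 (-0.24 to -0.16), and artery-like cells 3731 and 3355 CPM, a log2 ratio of -0.15 (-0.26 to -0.05). These 3 classes formed the upper group of levels in both libraries. LEC-like cells had 487 and 513 CPM, 7.31-fold and 5.09-fold below gCap-like cells, with a log2 ratio of 0.08 (-0.19 to 0.34).

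In aCap-like cells Ptprb was low and pointed the other way, at 71.9 CPM in control and 89.3 CPM in B16-F10, a log2 ratio of 0.31 (0.18 to 0.44). The gCap-like level was 49.5-fold the aCap-like level in control and 29.2-fold in B16-F10. The class was made of cluster 2 (833 control and 900 B16-F10 cells) and cluster 9 (613 and 72 cells). Within cluster 2 the levels were 86.0 and 90.7 CPM, a log2 ratio of 0.08 (-0.06 to 0.21), and within cluster 9 they were 39.1 and 48.9 CPM, a log2 ratio of 0.32 (-0.47 to 1.03). Neither cluster alone showed a difference beyond counting error, and with called doublets kept the ratio of the class was -0.10. At 2000 UMIs per cell, 9.66% of control and 12.5% of B16-F10 aCap-like cells held a Ptprb UMI, against 0 of 16 and 20% (10.8 to 32.3) of lymphoid-like cells. The lymphoid-like cells of the B16-F10 library held 159 CPM of Ptprb, so they give no background level for it. Free RNA was put at 16.9 of the 71.9 CPM and 17.8 of the 89.3 CPM in aCap-like cells. In gCap-like cells the shares were 99.3% and 97.7%.

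Along the reactive score, the receptors and Ptprb were also lowest in the highest score group of the B16-F10 library. The log2 ratio of highest over lowest group in that library was -0.48 (-0.52 to -0.43) for Tek, -0.35 (-0.43 to -0.27) for Tie1 and -0.54 (-0.56 to -0.51) for Ptprb. In the control library it was -0.27 for Tek, 0.01 for Tie1 and -0.16 for Ptprb. With score limits set on both libraries together, Tek was lower in B16-F10 in all 4 ranges, by log2 ratios of -0.41, -0.35, -0.27 and -0.32. Ptprb was lower in all 4 as well, by -0.32, -0.28, -0.24 and -0.40. Tie1 gave -0.09 (-0.22 to 0.03) in the lowest range, within counting error, and -0.22, -0.15 and -0.35 in the others.

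The 5 genes differed in how their levels ran over the 10 sums of 5 classes and 2 libraries. Among 5024 genes with at least 10 UMIs in each sum, the gene most like Tek by Pearson correlation of log2 CPM was Ptprb (r = 0.99 from the 10 sums), followed by Tmem44, Dnajc21, Sntb1 and Diaph1. Those most like Ptprb were Tmem44, Tek, Cemip2, Ldlrad4 and Cadps2. Those most like Angpt2 were Asah2, Kif1c, Wls, Rora and Grn, with r from 0.96 to 0.97. Those most like Tie1 were Nfatc1, Pde8a, Pik3c2a, Rora and Tns1, with r from 0.94 to 0.96. Those most like Angpt1, whose smallest sum held 3 UMIs, were Ptprm, Mical2, Cdc42bpa, Ralgapa1 and Epn2. The sums share 2 libraries and the same clusters, so these values describe the pattern only.

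Genes around the system were read from lists on signalling downstream of TEK, FOXO factors and targets, regulators of Angpt2 transcription, granule storage, and junction partners. Of the 17 adaptors and PI3K-AKT genes read here, 15 had at least 50 UMIs in gCap-like ECs, 1 was lower by at least 1.5-fold and none was higher, against the 9.56% and 7.62% of all genes. The lower gene was Grb14, an adaptor that binds receptor kinases (46.6 and 22.1 CPM, log2 ratio -1.07). The median of these genes was 0.01, beside -0.04 for all genes, and it was -0.09 with genes of at least 10 UMIs. Nos3, the endothelial nitric oxide synthase and a target of AKT, was 25.8 and 28.7 CPM, a log2 ratio of 0.15 (0.03 to 0.28).

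The FOXO list had the lowest median, -0.50 over 15 measured genes. By at least 1.5-fold, 6 were lower and 2 higher, beside 9.56% and 7.62% of all genes. Foxo1 itself was 162 CPM in control and 143 CPM in B16-F10, a log2 ratio of -0.18 (-0.23 to -0.12). Lower genes were the cell cycle inhibitor Cdkn1b (117 and 62.6 CPM, -0.91), the thioredoxin-binding Txnip (826 and 469 CPM, -0.82), and the stress-response genes Sesn3 (-0.80) and Sesn1 (-0.73). Ccng2, an atypical cyclin (-0.75), and Fbxo32, a ubiquitin ligase subunit (-0.66), were lower as well. Higher were the repressor Bcl6 (11.8 and 37.6 CPM, 1.67) and Irs2, an insulin receptor substrate (0.79), which rested on 20 and 37 UMIs with an interval that included 0. The median of the list was also below that of all genes in the other classes, from -0.36 in vein-like cells to -0.31 in LEC-like cells over 4 to 13 measured genes. By at least 1.5-fold, 3 were higher and 1 lower in aCap-like cells, where 14.6% of all genes passed in either direction. In vein-like cells 1 was higher and 4 lower, where 10.9% of all genes passed. Artery-like and LEC-like cells each had 1 lower and none higher, where 18.3% and 16.8% of all genes passed.

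**Figure D5:**
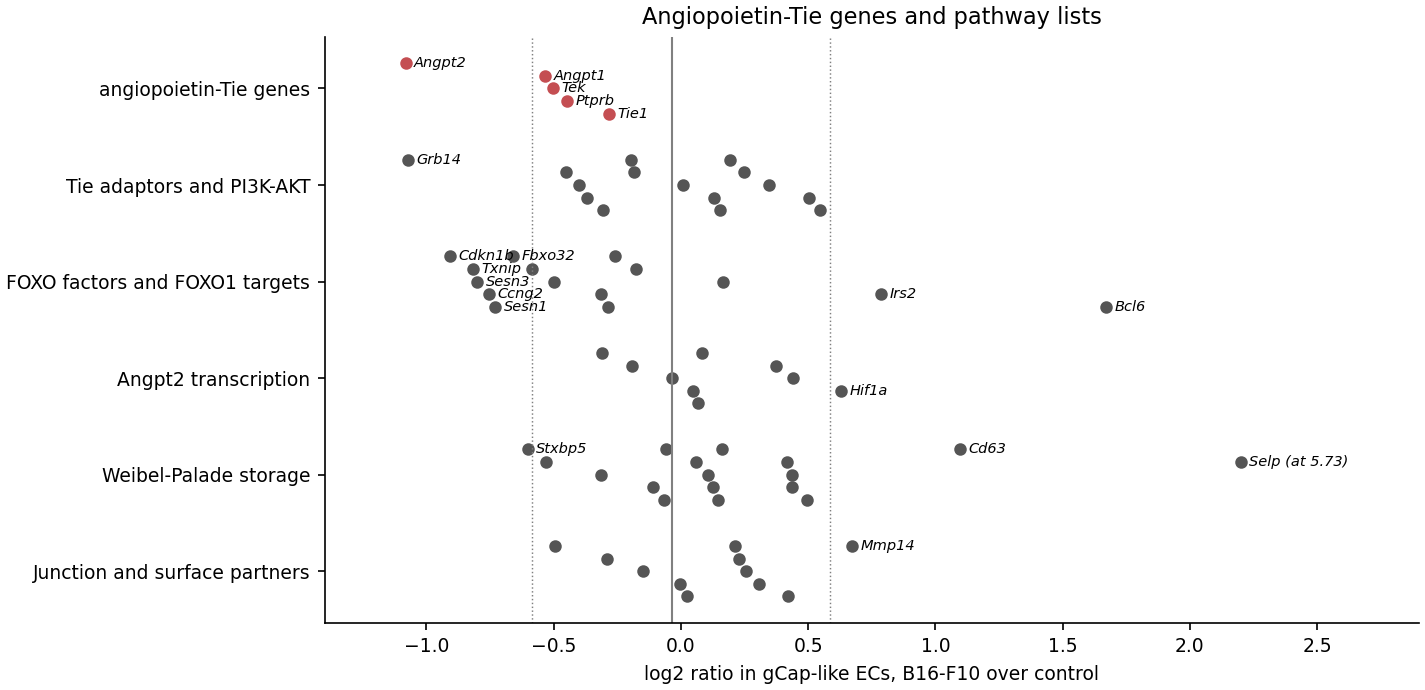
Log2 ratio of B16-F10 over control in gCap-like ECs for the 5 angiopoietin-Tie genes (red) and the measured genes of 5 pathway lists (grey), 1 point per gene, spread vertically only for legibility. The solid line is the median of all 13373 genes and dotted lines mark 1.5-fold; Selp, at 5.73, is drawn at the edge. Angpt2 and Grb14 are the lowest points shown.

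Of 17 measured storage granule genes, 2 were higher and 1 lower by at least 1.5-fold, beside 17.2% of all genes in either direction. Their median was 0.13, with 11 above 0 and 6 below. Vwf, the main content protein of Weibel-Palade bodies, was 187 CPM in control and 263 CPM in B16-F10, a log2 ratio of 0.49 (0.45 to 0.54). Selp, the P-selectin kept in the same granules, went from 12 to 684 UMIs (0.314 and 16.7 CPM, log2 ratio 5.73, 4.92 to 6.69). Cd63, a granule membrane protein, had 16.3 and 35.0 CPM (1.10), and Stxbp5, a syntaxin-binding protein, had 111 and 73.0 CPM (-0.60).

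Regulators of Angpt2 transcription gave 1 of 9 genes past 1.5-fold, beside 17.2% of all genes in either direction. The gene was Hif1a, the oxygen-sensitive factor, with 65.1 and 101 CPM (0.63), and the list median was 0.07. Among 11 junction and surface partners, 1 was past 1.5-fold, beside the same share of all genes. It was the membrane protease Mmp14, with 29.4 and 46.9 CPM (0.67). Cdh5, the endothelial cadherin at adherens junctions, was level at 1756 and 1751 CPM (-0.00, -0.02 to 0.01). The other Tie ligands on the list, Angpt4 and Svep1, had under 50 UMIs in gCap-like cells and were not read further.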

How the data were processed

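The authors deposited raw UMI count matrices of all barcodes, made with Cell Ranger 7.2.0 as the headers state, with mm10 as the genome; the study's methods name an earlier Cell Ranger version. Whether introns and strand entered the counting is not given in the sources used here. Total depth came to 85794655 (control) and 104978816 (B16-F10) UMIs. Doublets were scored with Scrublet in scanpy 1.11.5, the highest scores being called up to 0.8% per 1000 cells, which removed 564 and 554 cells. Cells were clustered with leidenalg 0.10.2 at resolution 0.8 into 23 clusters.

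Summed UMIs of a class in a library were given as CPM with exact Poisson intervals; ratios carry an exact conditional binomial interval and shares a Clopper-Pearson interval, all at 95% and for counting error only. Percentages of genes past 1.5-fold used genes whose 2 sums held at least 50 UMIs together. Named pathway genes were all list genes past 1.5-fold in gCap-like ECs, except 1 of the adaptor and PI3K-AKT list that is not reported here and was left out of that list's counts and median, plus Foxo1, Vwf, Nos3 and Cdh5; the 5 genes with the highest correlation were named for each gene. Free RNA was taken from barcodes with 1 to 100 UMIs and scaled with 2 epithelial genes, chosen after it was seen that the longer list held Hopx, which ECs express. The genes and lists were chosen with earlier results of these data known. Of 32285 gene IDs, 32158 were found in GENCODE M21. Upstream sequences were matched for Tek and Tie1; the Tie1 window reaches into the annotated gene and is not printed.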

Additional observations from a re-analysis of the deposited data

Results flagged for a closer look

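Ptprb differed in direction between vessel classes. Its log2 ratio of B16-F10 over control was 0.31 in aCap-like ECs. It was -0.45 in the gCap-like class, -0.20 in the vein-like class and -0.15 in the artery-like class, each with a counting interval that left out 0. With 1 library per group whether the classes differed was not tested. The aCap-like value came from levels of 71.9 and 89.3 CPM and was -0.10 with called doublets kept. Within the larger aCap-like cluster, cluster 2, the ratio was 0.08 (-0.06 to 0.21).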

How the results depend on the processing

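Over 9 main ratios and 13 alternatives, 101 of 117 values moved by less than their counting interval, and 16 moved by more. None whose interval left out 0 changed sign. Of 207 ratios of the genes in further classes, 188 stayed within it, 18 moved and 1 reversed, Ptprb in aCap-like ECs at -0.10 with doublets kept. Thinned to 2000 UMIs per cell, the gCap-like log2 ratios were -0.84 for Angpt2, -0.53 for Tek and -0.31 for Angpt1, and Angpt2 was -0.83 in aCap-like and 0.72 in vein-like ECs on few UMIs, both with the sign turned from values whose intervals include 0. Without clusters of low UMI count Tek was -0.44 and Ptprb -0.42, and with the median gene ratio set to 0 they were -0.47 and -0.41. Without cells carrying other markers Angpt1 was -0.37 and Ptprb -0.46. Ptprb was -0.47 with at least 500 genes per cell, with under 10% mitochondrial UMIs, with doublets kept and with each library clustered alone, and -0.46 with no upper limit of genes. With each gCap-like cluster left out in turn, added after seeing the data, the ratios ran from -1.23 to -0.86 for Angpt2, -0.61 to -0.41 for Tek, -0.34 to -0.21 for Tie1, -0.49 to -0.34 for Ptprb and -0.72 to -0.31 for Angpt1, the end nearest 0 being without cluster 6 in all 5. The cause of these shifts was not tested. No paired analysis was possible because the 2 groups have 1 library apiece. Depth limits Angpt2 most in artery-like, then in aCap-like ECs, and Angpt1 most in LEC-like and vein-like ECs.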

Other observations

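Barcodes outside the limits on detected genes gave values for the same genes. Barcodes with 300 to under 1000 genes, 1750 in control and 2590 in B16-F10, had log2 ratios of -0.77 (-1.63 to 0.08) for Angpt2 on 27 and 24 UMIs, -1.17 for Tek, -0.81 for Tie1, -0.86 for Ptprb and -0.33 for Angpt1. Cells with over 5000 genes, 348 and 645, had -0.21 (-0.48 to 0.06) for Angpt2, -0.33 for Tek, -0.15 for Tie1, -0.34 for Ptprb and 0.09 for Angpt1. These barcodes were not split into vessel classes.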
